A study of Mus musculus with 6 samples.

Results

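The genes described here are ligands, receptors and Smads of the transforming growth factor beta (TGF-beta) pathway. They are Tgfb1, Tgfb2, Tgfb3, Tgfbr1, Tgfbr2, Tgfbr3, Smad2, Smad3, Smad6 and Smad7, listed by gene name with earlier results of these data known. All 10 were among the 16533 genes counted, and all 10 passed the filter on low counts. They were measured in mouse inferior vena cava, the large vein of the trunk, that had been ligated for 24 h so that a thrombus formed, with the vein wall kept around the thrombus. Control pools, titled WT in the labels, came from Stingf/f mice, whose Sting1 gene is flanked by loxP sites, and mKO pools from Stingf/f Lyzm-Cre+/- mice, which in addition carry Cre recombinase in the Lyz2 locus. Both genotypes thus carry the floxed allele and both were ligated; no group without ligation was compared, and no age or sex is stated in the labels. Lyzm-Cre acts in neutrophils, monocytes and macrophages, and is not known to act in endothelium, smooth muscle or fibroblasts of the vein wall. Each group had 3 libraries, each library pooled 3 thrombi, and a p-value here measures the spread between pools.

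TGF-beta is made by platelets, leukocytes and cells of the vessel wall and is stored as a latent complex until it is released. The active dimer binds the type II receptor Tgfbr2, which phosphorylates the type I receptor Tgfbr1; the receptor complex in turn phosphorylates Smad2 and Smad3, which enter the nucleus with a common partner Smad and regulate transcription. Smad7 and Smad6 are inhibitory Smads that are induced by the pathway and by the related bone morphogenetic protein (BMP) pathway, and they feed back on the receptors. In veins the pathway is known for its part in thrombus organisation and wall fibrosis.

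The libraries held 158579864 to 180068483 counts, and single members had 467 to 43274 counts per library. Sting1 stood at 25.1, 31.4 and 27.1 CPM (gene counts brought to a common library size with the trimmed mean of M-values, TMM) in control libraries 1 to 3. In mKO libraries 1 to 3 it stood at 22.7, 21.4 and 28.7 CPM, so the ranges overlapped; a count over the whole tissue and gene does not show a deletion limited to myeloid cells. Lyz2, of which 1 copy carries Cre in mKO, stood at 1430 to 1885 CPM in control and 642.5 to 1153 CPM in mKO. Markers of every vein wall class were detected in every library: 14 endothelial, 12 smooth muscle and 12 fibroblast and adventitial genes, none of them at 0. The third mKO library stood apart with the least transcript of sympathetic neuron genes, 14.1 CPM summed over 8 markers against 128.2 to 344.0 CPM elsewhere. It also had the most skeletal muscle transcript, 233.4 CPM summed over 9 markers, and control library 3 had the next most, 63.4 CPM. The comparison asks how a myeloid deletion of Sting1 alters transcript levels in the thrombosed vein, and fold changes are given as mKO over control.

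Over all 16523 genes tested, edgeR's quasi-likelihood test called 0 at a Benjamini-Hochberg adjusted p under 0.05, a background of 0%, and it called 0 of the 10 members. At an unadjusted p under 0.05 it picked 1960 genes (11.9%) and 4 of the 10 members: Tgfb2, Tgfbr1, Smad3 and Smad7. DESeq2, run as an alternative, called 462 of 16514 genes (2.80%) and 2 of the 10 members, Tgfbr1 and Smad3. Both were higher in mKO, as 242 called genes (1.47%) were. The groups did not overlap for 4 of the 10 members and for 3000 of all genes (18.2%). All 3 mKO libraries lay above all 3 control libraries for those 4 members, Tgfbr1, Smad2, Smad3 and Smad7, where 8.76% of all genes did so. For 0 members did all mKO libraries lie below all control libraries, where 9.39% of all genes did so. The median log2 fold change was 0.11 over the members and -0.03 over all genes tested.

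**Figure D1:**
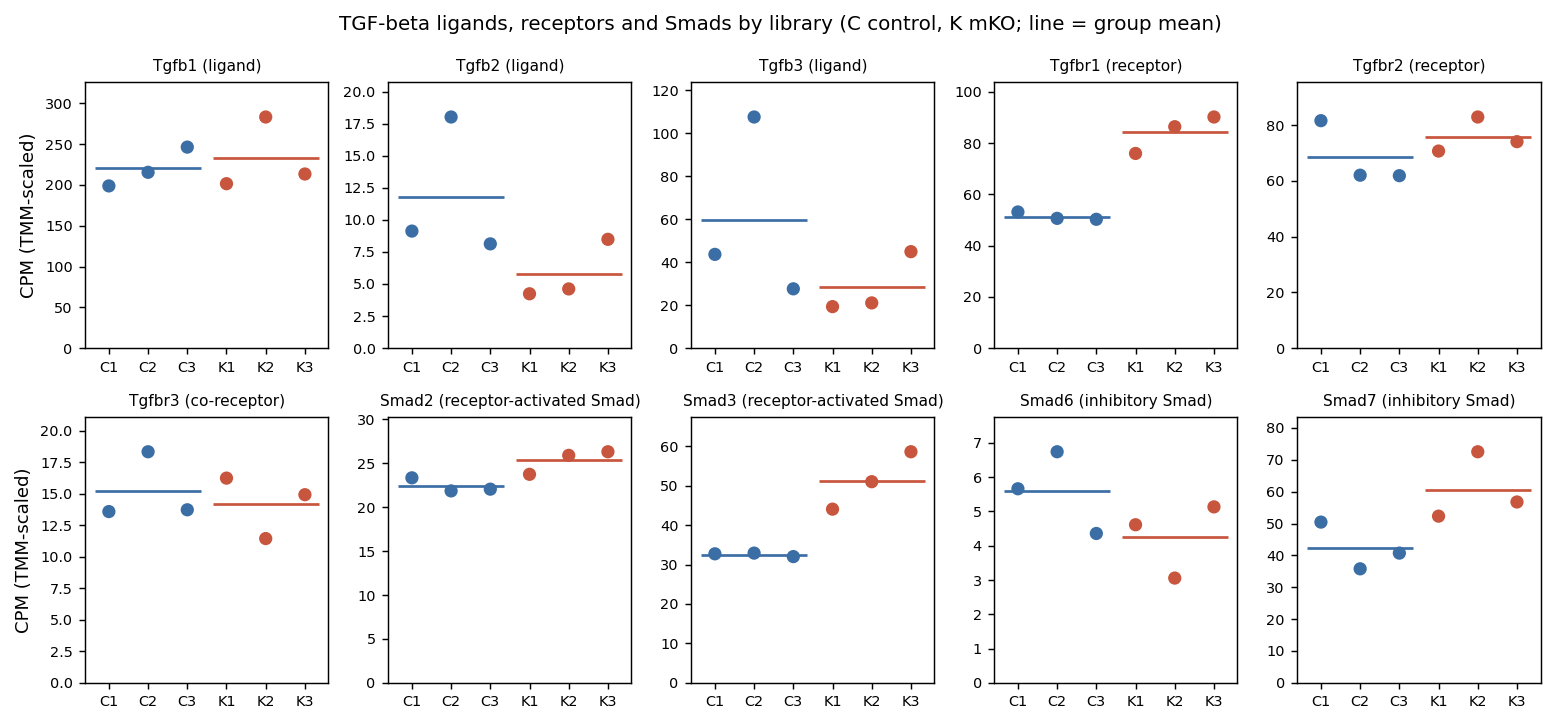
Level of each gene in each library, in TMM-scaled CPM on axes that start at 0; blue points are control libraries 1 to 3 (C1 to C3), red points mKO libraries 1 to 3 (K1 to K3), and lines are group means. Tgfbr1, Smad2, Smad3 and Smad7 lie higher in all 3 mKO libraries than in any control library, and Tgfb2 and Tgfb3 are highest in control library 2.

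By the annotation the genes lie on chromosomes 7 (Tgfb1), 1 (Tgfb2), 12 (Tgfb3), 4 (Tgfbr1), 5 (Tgfbr3), 9 (Tgfbr2, Smad3 and Smad6) and 18 (Smad2 and Smad7). Promoter sequences for 6 of the 10 genes, in 7 windows, were taken by symbol from the RefSeq table of build GRCm38.p6, and those of the other genes were not used. The 250 bases before the start site are shown for Tgfbr1 and Smad3, the genes that differed most between the genotypes relative to their spread. The same stretch is shown for Tgfb2, the ligand with the smallest p. They are Tgfbr1 at chr4:47352972-47353221 on the + strand, Smad3 at chr9:63757995-63758244 on the - strand and Tgfb2 at chr1:186705990-186706239 on the - strand, each read in the direction of its gene. Capitals mark the Smad-binding box CAGAC, the GC box GGGCGG and the TATA box TATAAA, each searched on both strands and not overlapping one another in these windows.
Tgfbr1: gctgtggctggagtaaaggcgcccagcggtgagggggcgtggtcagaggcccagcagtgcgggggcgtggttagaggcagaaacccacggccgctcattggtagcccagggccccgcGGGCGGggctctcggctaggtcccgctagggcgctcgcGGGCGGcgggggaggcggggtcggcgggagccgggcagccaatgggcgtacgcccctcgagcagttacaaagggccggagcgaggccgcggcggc
Smad3: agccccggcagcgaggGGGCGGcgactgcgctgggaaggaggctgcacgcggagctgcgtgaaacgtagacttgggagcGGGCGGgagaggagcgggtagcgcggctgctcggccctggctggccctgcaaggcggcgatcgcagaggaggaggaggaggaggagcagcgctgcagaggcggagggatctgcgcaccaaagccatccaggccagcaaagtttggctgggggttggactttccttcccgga
Tgfb2: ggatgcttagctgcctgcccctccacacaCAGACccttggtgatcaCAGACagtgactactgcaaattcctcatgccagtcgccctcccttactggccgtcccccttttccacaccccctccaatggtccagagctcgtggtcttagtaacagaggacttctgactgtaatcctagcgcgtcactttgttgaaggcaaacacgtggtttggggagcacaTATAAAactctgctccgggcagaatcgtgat
The Tgfbr1 and Smad3 windows each held 2 GC boxes and 0 Smad-binding boxes, with a G and C content of 74.8% and 69.2%. The Tgfb2 window held 2 Smad-binding boxes, 1 TATA box and 0 GC boxes, with a G and C content of 53.6%. Over 32851 windows of the same length in the table, 42.2% held CAGAC, 32.7% held GGGCGG and 12.4% held TATAAA, so each of these matches is common. GC boxes were also counted before Tgfb1 (5) and Smad6 (4), and 1 Smad-binding box before Tgfbr2 and 1 before a second annotated start of Tgfbr1. The palindrome GTCTAGAC, found in 0.167% of all windows, was in 0 of the 7. Smad2, Smad7, Tgfb3 and Tgfbr3 were not searched, so nothing is known here of their promoters.

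Levels of different genes were compared per kilobase of exon, using exon lengths of the GENCODE M21 annotation of the earlier build GRCm38, in which all 10 genes were matched. In control, Tgfb1 had the highest level, 43.7 ± 4.79 CPM per kilobase (SD, n = 3). It was followed by Tgfb3 at 17.6 ± 12.5, Smad7 at 9.36 ± 1.65, Tgfbr2 at 8.37 ± 1.39 and Tgfbr1 at 7.86 ± 0.237 CPM per kilobase (SD, n = 3 each). Then came Smad3 at 5.87, Smad2 at 2.55, Tgfbr3 at 2.32, Tgfb2 at 2.03 and Smad6 at 1.74 CPM per kilobase. The libraries of neighbours in this order overlapped except between Tgfb1 and Tgfb3, between Tgfbr1 and Smad3, and between Smad3 and Smad2. In mKO the order was Tgfb1 at 46.2, Smad7 at 13.4, Tgfbr1 at 12.9, Tgfbr2 at 9.27, Smad3 at 9.24, Tgfb3 at 8.39, Smad2 at 2.88, Tgfbr3 at 2.17, Smad6 at 1.33 and Tgfb2 at 0.998 CPM per kilobase. There Smad7 and Tgfbr1 overlapped, as did Tgfbr2 with Smad3, Smad3 with Tgfb3, and Smad6 with Tgfb2. Of the 10 genes Tgfb1 had the highest level in both groups.

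Among the ligands, Tgfb1, the isoform of platelets and leukocytes, was close to level between the genotypes. It stood at 198.8, 215.4 and 246.3 CPM in control libraries 1 to 3 and at 201.5, 283.2 and 213.4 CPM in mKO libraries 1 to 3. Of all 6 libraries mKO library 2 was the highest, and the other mKO libraries lay inside the control range. Its log2 fold change was 0.08 (SE 0.17) with a 95% interval of -0.32 to 0.48 and an edgeR adjusted p of 0.854. Summed platelet markers ran from 4883 to 7151 CPM in control and from 3580 to 5642 CPM in mKO, and all 12 measured platelet markers had a log2 fold change below 0. Monocyte and macrophage markers summed to 731.2 to 819.6 CPM in control and 806.1 to 1036 CPM in mKO, with 10 of 13 above 0. The part of these cell markers in the Tgfb1 level was not tested.

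Tgfb2, an isoform of mesenchymal and wall cells, stood at 9.12, 18.0 and 8.13 CPM in control and at 4.24, 4.61 and 8.48 CPM in mKO. Both mKO library 1 and mKO library 2 lay below every control library, and mKO library 3 lay between control libraries 3 and 1. Its log2 fold change was -1.02 (SE 0.40; 95% interval -2.0 to -0.05), with an unadjusted p of 0.0414 and an adjusted p of 0.405 by edgeR. Without control library 2 it was -0.58, and without mKO library 3 it was -1.41. An antisense gene shares 124 exonic bases with Tgfb2 in the annotation, and since no strand setting is stated, reads there cannot be told apart.

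Tgfb3, also an isoform of smooth muscle and other wall cells, stood at 43.6, 107.5 and 27.6 CPM in control and at 19.3, 21.0 and 44.9 CPM in mKO. Control library 2 had more than the next library by a wide margin, and mKO library 3 exceeded the other control libraries, so the groups overlapped. The log2 fold change was -1.07 (SE 0.62; 95% interval -2.61 to 0.48; edgeR adjusted p 0.528), and without control library 2 it was -0.33. Genes on the opposite strand share 420 exonic bases with Tgfb3, with the same limit as for Tgfb2.

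The 3 libraries with the most Tgfb2 and Tgfb3 were also the 3 with the highest smooth muscle score, control libraries 1 and 2 and mKO library 3. The smooth muscle score, the mean log2 CPM of 12 markers relative to all libraries, was 0.11, 1.10 and -0.10 in control libraries 1 to 3 and -0.45, -0.88 and 0.21 in mKO libraries 1 to 3. The summed level of these markers ran from 1434 to 3445 CPM in control and from 832.8 to 1732 CPM in mKO, and all 12 had a log2 fold change below 0. In tissue RNA, fewer cells of a type and less RNA per cell cannot be told apart. With a vessel wall score (the mean of the endothelial, smooth muscle and fibroblast scores) as a covariate in the edgeR fit, the log2 fold change of Tgfb2 was -0.35 (SE 0.31) and that of Tgfb3 turned to 0.075 (SE 0.38). The ratio of Tgfb3 to Tgfb2 per kilobase within a library ran from 5.81 to 10.2 in control and from 7.80 to 9.05 in mKO, so the groups overlapped. The ratio of Tgfb1 to Tgfb3 ran from 1.35 to 6.0 in control and from 3.19 to 9.04 in mKO.

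**Figure D2:**
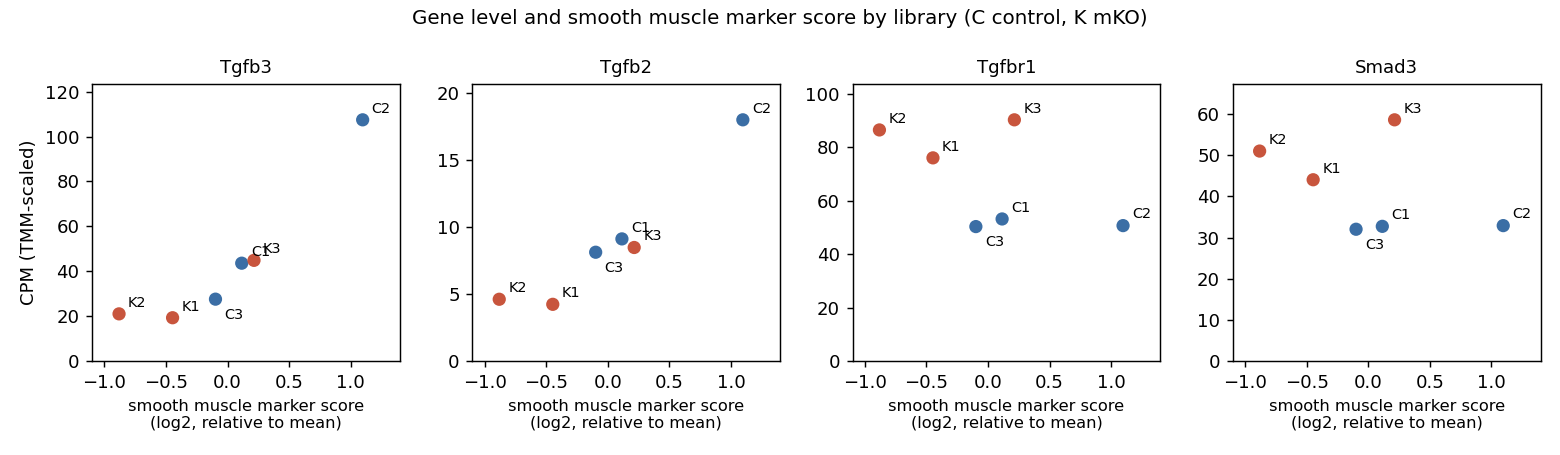
Level of Tgfb3, Tgfb2, Tgfbr1 and Smad3 (vertical axes, TMM-scaled CPM from 0) against the smooth muscle marker score (horizontal axes, log2 relative to the mean of 6 libraries), 1 point per library, control in blue and mKO in red. Tgfb3 and Tgfb2 are highest in control library 2, which has the highest score, 1.10. Tgfbr1 and Smad3 lie higher in all mKO libraries, whose scores run from -0.88 to 0.21. The part of smooth muscle in these levels was not tested.

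Tgfbr1, the type I receptor kinase that activates Smad2 and Smad3, differed most of the members relative to its spread. It stood at 53.1, 50.6 and 50.3 CPM in control libraries 1 to 3 and at 76.0, 86.4 and 90.2 CPM in mKO libraries 1 to 3. The control libraries were nearly level and every mKO library was far above them. The means were 51.3 ± 1.55 and 84.2 ± 7.37 CPM (SD, n = 3 each), a fold of 1.64. In log2 terms the difference was 0.71 (SE 0.11; 95% interval 0.45 to 0.98), with an unadjusted p of 2.86e-04 and an adjusted p of 0.148 by edgeR, so it did not pass. By DESeq2 it passed, with a log2 fold change of 0.74 (SE 0.12) and an adjusted p of 1.60e-06; over all 16 alternatives the adjusted p ran from 1.60e-06 to 0.488. Its log2 fold change stayed between 0.65 and 0.79 in all of them, the wall score fit giving 0.72 (edgeR adjusted p 0.330). In rank of p it was number 32 of 16523 genes.

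Tgfbr2, the type II receptor that binds the ligand, stood at 81.6, 62.1 and 61.9 CPM in control and at 70.7, 83.0 and 74.1 CPM in mKO. Control library 1 lay among the mKO libraries, so the groups overlapped. Its log2 fold change was 0.15 (SE 0.15; 95% interval -0.19 to 0.49; edgeR adjusted p 0.676), and without control library 1 it was 0.29. It was 0.08 without control library 2, control library 3 or mKO library 2, each left out alone, and with the wall score. The ratio of Tgfbr1 to Tgfbr2 per kilobase, which does not depend on library scaling, was 0.815, 1.02 and 1.02 in control and 1.35, 1.31 and 1.53 in mKO. It was higher in all 3 mKO libraries.

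Tgfbr3, betaglycan, a co-receptor that presents TGF-beta 2 to the signalling receptors, had overlapping groups. It stood at 13.6, 18.3 and 13.7 CPM in control and at 16.2, 11.4 and 14.9 CPM in mKO, with control library 2 the highest and mKO library 2 the lowest. The log2 fold change was -0.10 (SE 0.17; 95% interval -0.50 to 0.31; edgeR adjusted p 0.816). Its sign turned without control library 2 (0.057) and without mKO library 2 (0.034). A gene on the same strand shares 297 exonic bases with Tgfbr3, and reads there cannot be told apart whatever the strand setting.

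Smad3, which binds DNA and drives much of the transcriptional response to TGF-beta, had the second smallest p of the members. It stood at 32.7, 32.9 and 32.0 CPM in control libraries 1 to 3 and at 44.0, 51.0 and 58.6 CPM in mKO libraries 1 to 3. The control libraries lay within 1 CPM of one another and the mKO libraries were all higher. The means were 32.5 ± 0.467 and 51.2 ± 7.28 CPM (SD, n = 3 each), a fold of 1.57. In log2 terms the difference was 0.65 (SE 0.12; 95% interval 0.36 to 0.94), with an unadjusted p of 9.10e-04 and an adjusted p of 0.188 by edgeR, which did not pass. By DESeq2 it passed, at 0.68 (SE 0.15) with an adjusted p of 6.47e-04; over the 16 alternatives the adjusted p ran from 6.47e-04 to 0.518. The log2 fold change was 0.55 without mKO library 3, its highest, and 0.71 once the wall score was included (edgeR adjusted p 0.363).

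Smad2, the other Smad that the TGF-beta receptor activates, differed little. It stood at 23.3, 21.9 and 22.1 CPM in control and at 23.7, 25.9 and 26.3 CPM in mKO. The groups did not overlap, but mKO library 1 exceeded control library 1 by less than the spread among the control libraries. Its difference on the log2 scale was 0.18 (SE 0.09; 95% interval -0.04 to 0.39; edgeR adjusted p 0.479). Smad3 over Smad2 per kilobase was 2.22, 2.39 and 2.30 in control and 2.94, 3.12 and 3.53 in mKO, higher in all 3 mKO libraries.

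**Figure D3:**
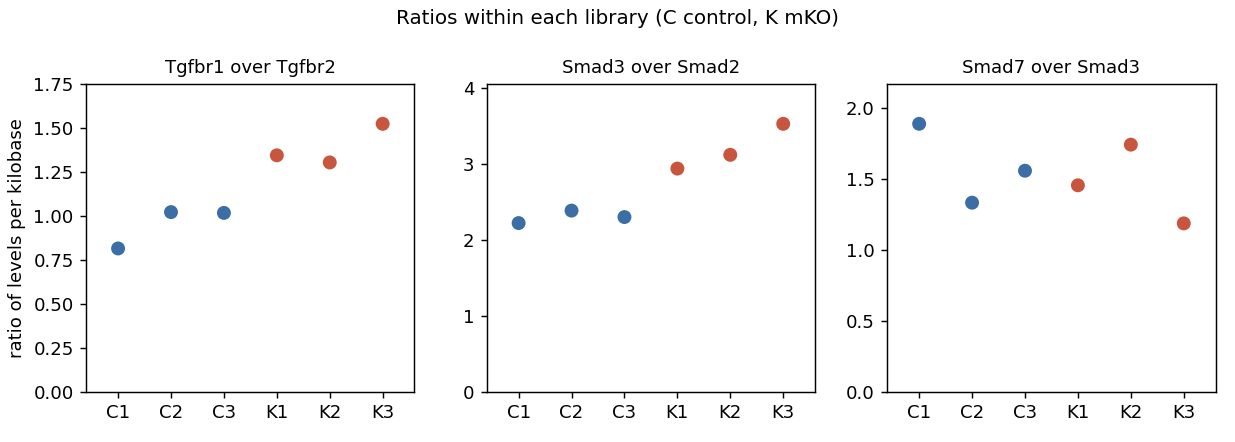
Ratio of the levels per kilobase of 2 genes within each library, on axes that start at 0, for control (blue, C1 to C3) and mKO (red, K1 to K3). Tgfbr1 over Tgfbr2 and Smad3 over Smad2 are higher in all 3 mKO libraries, whereas Smad7 over Smad3 overlaps between the groups.

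Smad7, the inhibitory Smad that targets the TGF-beta receptor, stood at 50.4, 35.8 and 40.7 CPM in control and at 52.3, 72.5 and 56.8 CPM in mKO. The highest was mKO library 2, and the lowest mKO library was close to control library 1. The means were 42.3 ± 7.46 and 60.5 ± 10.6 CPM (SD, n = 3 each). This gave a log2 fold change of 0.52 (SE 0.17; 95% interval 0.11 to 0.92), with an unadjusted p of 0.0195 and an adjusted p of 0.344 by edgeR; by DESeq2 the adjusted p was 0.145. It was 0.37 without mKO library 2 and 0.31 once the wall score was included. Smad7 over Smad3 per kilobase ran from 1.33 to 1.89 in control and from 1.19 to 1.74 in mKO, so the groups overlapped.

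Smad6, the inhibitory Smad tied mostly to BMP signalling and rich in endothelium, was the lowest Smad of the set. It stood at 5.66, 6.74 and 4.36 CPM in control and at 4.61, 3.06 and 5.13 CPM in mKO, with overlapping groups and mKO library 2 the lowest. The log2 fold change was -0.39 (SE 0.24; 95% interval -0.95 to 0.17; edgeR adjusted p 0.537), and it was -0.20 without mKO library 2, -0.23 without control library 2 and 0.050 in the fit with the wall score. Smad7 over Smad6 per kilobase was 6.32, 3.76 and 6.62 in control and 8.04, 16.8 and 7.84 in mKO. The inhibitory Smads thus differed in opposite directions, neither past the threshold.

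Endothelial markers summed to 1133 to 1311 CPM in control and 897.8 to 1051 CPM in mKO, groups that did not overlap, and 13 of 14 had a log2 fold change below 0. Neutrophil markers, by contrast, summed to 9772 to 16101 CPM in control and 13888 to 19299 CPM in mKO, with 8 of 12 above 0. Erythroid markers summed to 145809 to 188340 CPM in control and 170636 to 199094 CPM in mKO, ranges that overlapped, with 9 of 9 above 0. Adipocyte markers summed to 706.9 to 871.5 CPM in control and 394.8 to 592.7 CPM in mKO, with 7 of 8 below 0. Lymphatic endothelial markers summed to 210.7 to 239.9 CPM in control and 173.2 to 210.3 CPM in mKO, with 6 of 7 below 0, and neither pair of ranges overlapped. The lymphatic sums all but touched. Mmrn1 made up 89.4 to 119.0 CPM of them in control and 54.7 to 103.6 CPM in mKO, and its own groups overlapped. T and NK cell markers were below 0 for 11 of 12. DESeq2 called as lower 4 of the 7 lymphatic, 2 of the 8 adipocyte, 2 of the 14 endothelial and 2 of the 12 T and NK cell markers. Also called as lower were 1 of the 12 smooth muscle and 1 of the 13 monocyte and macrophage markers. DESeq2 called 1.33% of all genes as lower. As higher it called 4 of the 9 erythroid, 1 of the 12 neutrophil and 1 of the 13 monocyte and macrophage markers, beside 1.47% of all genes. No marker of these classes was at 0 in any library. Beyond the wall score, their part in the Tgfbr1, Smad3 and Smad7 levels was not tested.

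**Figure D4:**
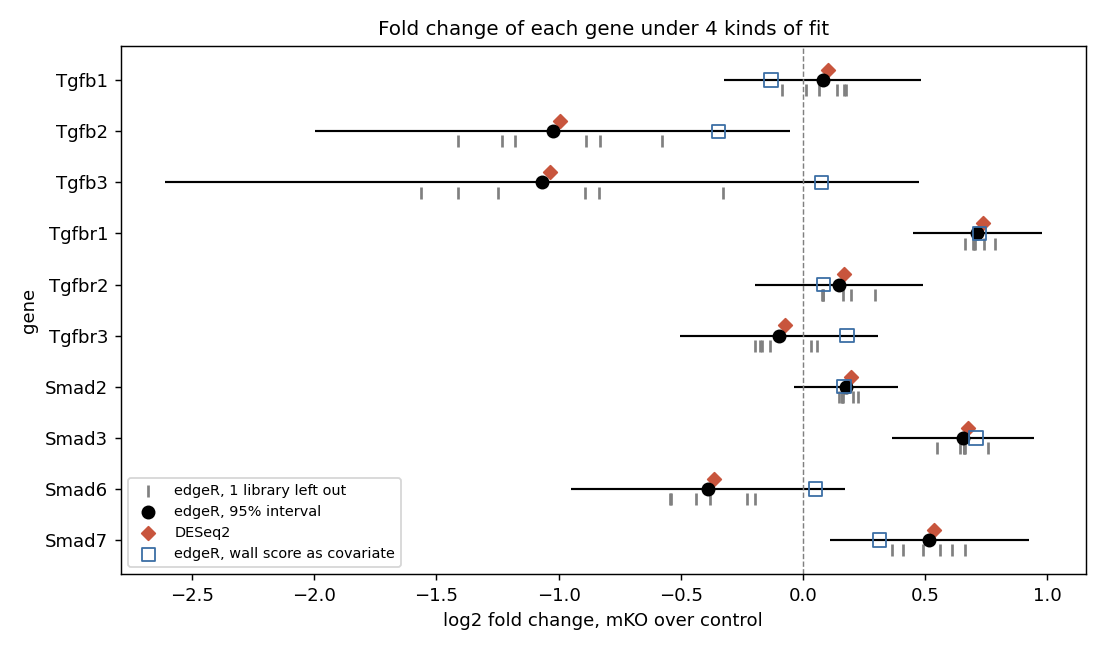
Log2 fold change, mKO over control, of each gene: black points with lines are edgeR estimates with 95% intervals, red diamonds DESeq2 estimates, blue squares edgeR estimates with the wall score as a covariate, and grey ticks edgeR estimates with 1 library left out. The intervals of Tgfbr1, Smad3, Smad7 and Tgfb2 exclude 0 before any adjustment. With the wall score covariate Tgfb3 is at 0.075 instead of -1.07 and Tgfbr1 at 0.72 instead of 0.71.

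Other genes of the pathway were taken from 6 lists, and edgeR called 0 of their 95 tested genes in either direction. All mKO libraries were higher than all control libraries for 7 of the 95 and lower for 15, beside 8.76% and 9.39% of all genes. DESeq2 called 6 of the 95, where it called 1.47% of all genes as higher and 1.33% as lower: Bmpr1a and Il11 as higher, and Itga8, Ccn2, Postn and Lox as lower.

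Among 15 genes of latency and activation, 4 had a log2 fold change above 0 and 11 below, with a median of -0.24. Ltbp1, which tethers the latent complex to the matrix, averaged 48.7 ± 11.2 CPM in the control pools against 28.2 ± 7.56 CPM in the mKO pools (SD, n = 3 each). Its log2 fold change was -0.79 (SE 0.24; edgeR adjusted p 0.312). Itga8, an integrin subunit of smooth muscle and other mesenchymal cells, was at -1.39 (SE 0.46; edgeR adjusted p 0.358) and was called by DESeq2 (adjusted p 0.0224). It was at -0.88 without control library 2 and at -0.48 with the wall score in the fit. Thbs1, thrombospondin 1 of platelet granules, an activator of latent TGF-beta and the most abundant of the list, was at -0.01 (SE 0.21).

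Among 15 partner receptors and co-receptors, 7 were above 0 and 8 below, with a median of -0.03. Bmpr1a, a type I receptor for BMPs, stood at 27.6 to 34.0 CPM in control and 40.5 to 43.4 CPM in mKO, groups that did not overlap. Its log2 fold change was 0.43 (SE 0.11; adjusted p 0.255 by edgeR and 0.0163 by DESeq2). Bambi, a decoy receptor without a kinase domain, was at 0.32 (SE 0.16), and the endocytic receptor Lrp1, the most abundant, at -0.03 (SE 0.15).

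Among 11 other Smads and their partners, 7 were above 0 and 4 below, with a median of 0.11. Smad1, which carries BMP signals, was at -0.30 (SE 0.11) with groups that did not overlap, and Trim33, a ubiquitin ligase that binds Smads, was at 0.40 (SE 0.17). Ep300, an acetyltransferase recruited by Smads, was the most abundant and stood at 0.30 (SE 0.21). Their edgeR adjusted p-values were 0.382, 0.410 and 0.572. Ep300 was at 0.53 without control library 1, 0.18 without control library 2, 0.15 without mKO library 2 and 0.13 with the wall score.

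Among 21 negative regulators, 13 were above 0 and 8 below, with a median of 0.09. Smurf1, a ubiquitin ligase that acts on Smads and receptors, was at -0.32 (SE 0.09; edgeR adjusted p 0.305). Follistatin, Fst, which traps activins, was at -0.53 (SE 0.16; edgeR adjusted p 0.308). Fkbp1a, the immunophilin that holds the type I receptor inactive, was the most abundant and was at -0.29 (SE 0.14; edgeR adjusted p 0.461). With the wall score in the fit, Fst was at -0.31 and Fkbp1a at -0.17.

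Among 20 TGF-beta response genes, 7 were above 0 and 13 below, with a median of -0.30. Il11, a cytokine of stromal cells, stood at 5.18 to 9.19 CPM in control and 13.8 to 20.7 CPM in mKO, with a log2 fold change of 1.14 (SE 0.24; adjusted p 0.221 by edgeR and 7.82e-04 by DESeq2). Periostin, Postn, a matricellular protein, stood at 54.4 to 82.0 CPM in control and 22.4 to 36.4 CPM in mKO, with -1.04 (SE 0.23; adjusted p 0.232 by edgeR and 0.00235 by DESeq2), and -0.63 with the wall score in the fit. Ccn2, a matricellular growth factor, and Lox, a collagen crosslinker, chosen after their values were seen, were at -1.07 (SE 0.26) and -0.62 (SE 0.17), with edgeR adjusted p-values of 0.246 and 0.301. The members that DESeq2 called as higher, Tgfbr1 and Smad3, thus stood beside response genes that lay in both directions. Many response genes are also made by fibroblasts and smooth muscle, whose markers were lower for 10 of 12 and 12 of 12 genes, and the part of those cells was not tested.

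Among 13 genes listed as BMP ligands and BMP response genes, 2 were above 0 and 11 below, with a median of -0.27. The list also holds the activin subunits Inhba and Inhbb, and Gdf15, which are not BMPs, and Inhba was 1 of the 2 above 0. Bmp2 was at -0.64 (SE 0.28; edgeR adjusted p 0.434) with groups that did not overlap, and Id4, a helix-loop-helix inhibitor that BMPs induce, was at -0.72 (SE 0.37; edgeR adjusted p 0.486). Without control library 2 they were at -0.39 and -0.38, Bmp2 was at -0.40 without mKO library 1, Id4 was at -0.43 without mKO library 2, and Id4 was at -0.17 with the wall score in the fit. Inhba, the activin A subunit, was the most abundant and was at 0.31 (SE 0.30), with mKO library 3 the highest; it was at 0.57 without control library 2, 0.19 without control library 1, -0.035 without mKO library 3 and 0.76 with the wall score.

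**Figure D5:**
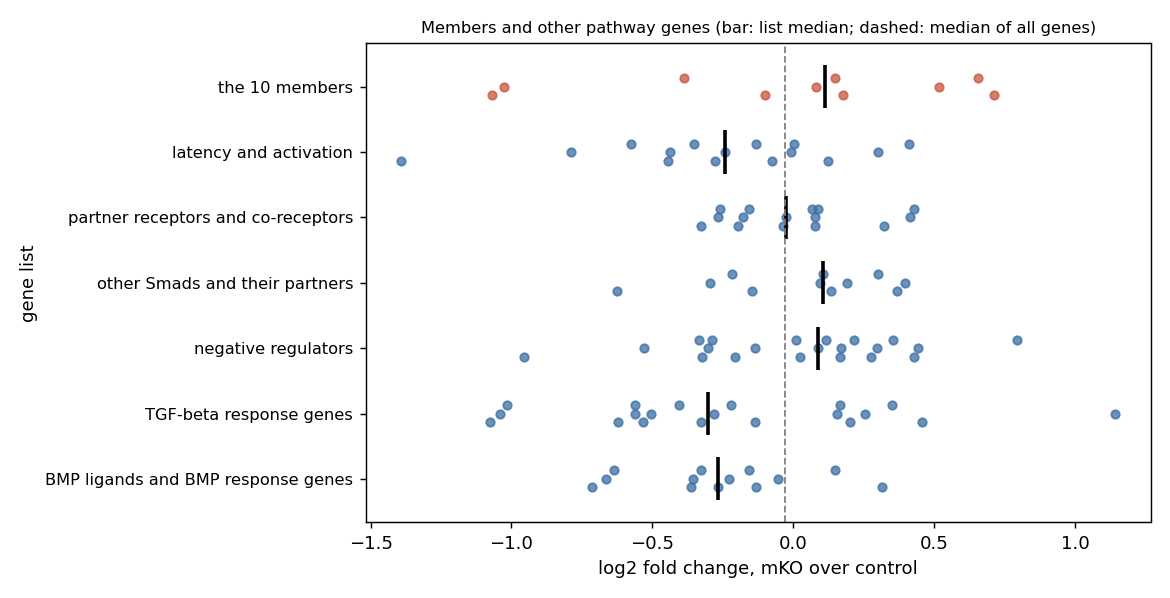
Log2 fold change, mKO over control, of the 10 members (red) and of the tested genes of 6 other pathway lists (blue); each point is 1 gene, black bars are list medians and the dashed line is the median of all genes tested, -0.03. The TGF-beta response genes have the lowest median, -0.30, and the members and the other Smads have the highest, 0.11 each.

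The genes whose levels over the 6 libraries were most like a leading member were taken from 13884 genes with a mean of at least 1 CPM, by Pearson's r of log2 CPM. The values describe the best matches of many and carry no test. For Tgfb1 they were Cnn2 (r = 0.98), Frmd8 (0.97) and Ube2v1 (0.96). For Tgfbr2, the receptor with the highest mean CPM over the 6 libraries, they were Pptc7, Ccdc186 and Dusp1, with r from 0.99 to 1.00. For Smad7, the Smad with the highest mean CPM, they were Gm20775, Sp2 and Zbtb2, each with r = 1.00 when rounded.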

How the data were processed

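Each library's file, as deposited, holds whole-number read counts for 16533 genes. Per the submitters' processing notes the tools were featureCounts 2.0.1, HISAT2 2.1.0, Trim Galore 0.4.0 and FastQC 0.11.8, on mouse build GRCm39; their settings are unstated. No source used here states the gene annotation, whether strand was counted, or how the gene list was shortened. Tables were joined by gene identifier, and genes were fitted with edgeR 4.0.16 in R 4.3.3 (TMM, default expression filter, robust quasi-likelihood F-test, genotype only); Benjamini-Hochberg adjustment ran over the 16523 genes tested. The SE is that implied by the F-test. DESeq2 1.42.0 and limma 3.58.1 (voom) were alternatives. The fits were run on simulated counts with known changes. A limit on calls in simulated counts without changes was set for edgeR only, so the calls of DESeq2 were not checked in this way. Marker scores use log2 CPM with a prior count of 2. No replicate pair agreed within sampling noise.

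The members, the 6 pathway lists and the 12 marker lists were chosen with earlier results of these data known. Genes named from a pathway list were the 2 with the smallest p and the 1 with the highest mean CPM; genes named as called by DESeq2 were chosen after their values were seen. A gene that this rule names is not reported here. The fit without control library 3 and mKO library 3 was also chosen after seeing the data.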

Additional observations from a re-analysis of the deposited data

How the results depend on the processing

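The 10 members were refitted under 16 alternatives, and none of the edgeR or voom fits called a member or another pathway gene. DESeq2 called 462 genes, 2 members and 6 other pathway genes, against 0, 0 and 0 by edgeR. The count over all genes ran from 0 to 7 when 1 library was left out (7 without control library 1, 2 without control library 3 and 4 without mKO library 3) and was 6 without control library 3 and mKO library 3 together. With 1 library left out of a group of 3, that group's spread rests on the remaining pair and on the other group.

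Tgfb2, Tgfbr1, Tgfbr2, Smad2, Smad3 and Smad7 kept their sign in all 16. With the wall score as a covariate the log2 fold change changed sign for Tgfb1 (-0.13), Tgfb3 (0.075), Tgfbr3 (0.18), Smad6 (0.050), Thbs1 (0.055) and Lrp1 (0.13); the cause was not tested. Leaving out 1 library gave ranges across 0 for Tgfb1 (-0.086 to 0.17), Tgfbr3 (-0.20 to 0.057), Thbs1 (-0.17 to 0.18), Lrp1 (-0.13 to 0.065) and Inhba (-0.035 to 0.57). Thbs1 was at 0.016 with relative log expression size factors and 0.016 by DESeq2, and Inhba was at -0.13 without control library 3 and mKO library 3. The same fit gave -1.62 for Tgfb2 and -1.91 for Tgfb3.

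With the replicate number as a block (the replicate block), edgeR called 0 genes and 0 members, and the log2 fold change was 0.71 for Tgfbr1 and 0.64 for Smad3. The deviations of same-numbered libraries correlated at -0.14, -0.15 and -0.27 across genes. Differently numbered libraries of different genotype correlated at -0.09 to 0.24. The deviations were taken within groups of 3, so these values cannot tell whether a shared number means a shared batch.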
